A study of Danio rerio with 24 samples.

Results

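Wild-type (WT) zebrafish larvae were sampled at 3 and at 5 days post-fertilization (dpf), and the change between these ages was measured by RNA sequencing (RNA-Seq) of whole animals. The comparison took the 4 libraries of WT larvae at 5 dpf and the 4 libraries of WT larvae at 3 dpf, 8 of the 24 libraries of the study, and covered every gene in the table of that pair of groups. The other 16 libraries came from the same ages of larvae that carry the neuronal driver *elavl3:Gal4* (labelled huC:gal4:gcry:RFP) and of larvae that carry the driver together with the transgene *UAS:fynY531F* (labelled UAS:fynY531F:gcry:GFP beside the driver), in which neurons make a constitutively active Fyn kinase. WT larvae were of the WIK strain by the study's methods and carry no transgene. All groups were raised under the same light cycle, each library is a pool of whole larvae, and a level is therefore a mean over all tissues of several animals. The larvae were not separated by sex or tissue.

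Between these ages the zebrafish passes from a hatched embryo that lives on its yolk to a swimming larva that hunts. The yolk is consumed, the mouth and gut open, the pancreas and liver begin to serve digestion, and the swim bladder fills. Cell division slows in many tissues while neurons form synapses, axons are wrapped in myelin, and the eye and the mechanosensory hair cells come into use. The lists of genes described here follow these organs and processes, and they were chosen with earlier results of these data known.

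Replicate libraries of 1 age were alike and the ages stood apart. Across the 19589 genes tested, Pearson's r of log2 levels lay between 0.982 and 0.986 for replicates and between 0.905 and 0.919 for libraries of different ages, where genes are not independent replicates. Total counts were 12779937 to 12984885 per library at 3 dpf (median 12874740) and 12842827 to 17674082 at 5 dpf (median 14437054). An exact permutation test of the difference of the means gave a 2-sided p of 0.0857, where the smallest p possible is 0.0286. Each library had counts on 23339 to 23857 genes. Counts on ribosomal RNA genes, which poly(A) selection should remove, made up 0.0372–0.0445% of a library at 3 dpf and 0.0763–0.0826% at 5 dpf, and their part in the results was not tested. Of the first pair of markers in each of 44 gene lists, 86 of 88 were matched to a gene and 83 had counts in all 8 libraries, among them markers of brain, muscle, skin, blood and eye. The exceptions were *ctslb* of the hatching gland, which was at 0 in at least 1 library at 5 dpf, and the complement genes *c1qa* and *c1qb*. Some markers with counts in all libraries were near the floor. Their lowest counts at 3 and 5 dpf were 1 and 2 for *hcrt* of the hypothalamus, 4 and 5 for *lyz* of neutrophils, and 5 and 5 for *ins* of the islet.

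Most of the genes tested differed between the ages. Of 19589 genes tested, 11352 were called at an adjusted p under 0.05 (58.0%) by the quasi-likelihood test of edgeR, with p adjusted by Benjamini and Hochberg's method. The 5734 genes that were higher at 5 dpf made up 29.3% of the genes tested, and the 5618 that were lower made up 28.7%. The counts given below for each gene list are to be read beside these shares, since no test of a list was made. Large changes leaned towards rises, since 1671 genes rose and 850 fell by more than 1 on the log2 scale. Above 3 on the log2 scale there were 224 rises and 29 falls. The median log2 fold change of all genes tested was −0.003 after scaling by the trimmed mean of M-values (TMM). When libraries were scaled by their totals alone, this median moved to −0.15, and 4310 genes were higher and 7724 lower. The direction of small changes thus depends on the scaling, and fold changes here are relative to the TMM scale. When all 6 groups of the study shared one fit, 7560 genes were called (3949 higher). Libraries of the ages did not overlap in 10203 genes (52.1%). The labels do not give the parents of each pool, so a difference between clutches cannot be told apart from age in these calls. Levels are counts scaled to a common library total (CPM) with TMM factors, given per library in replicate order or as mean ± SD with n = 4 at each age, and a log2 fold change (or log2 change, given ± its standard error) is positive where 5 dpf is higher. In RNA from whole animals, a larger number of cells of a type and more RNA per cell cannot be told apart. Nor does the name of a list give the tissue that a member's transcripts came from, and 115 genes stood in more than 1 list.

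**Figure D1:**
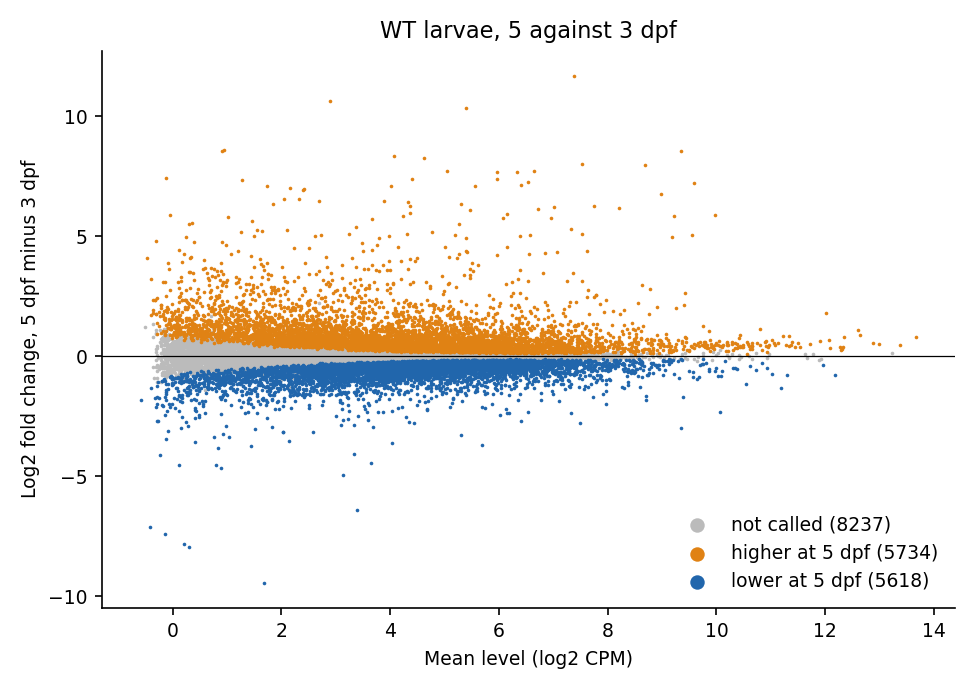
Change between 3 and 5 dpf in WT larvae for each of 19589 genes tested (y axis, log2 fold change, 5 dpf minus 3 dpf) against its mean level (x axis, log2 CPM). Orange points are the 5734 genes called higher at 5 dpf, blue points the 5618 called lower and grey points the genes not called, and the largest changes lie above 0.

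Digestive enzymes of the pancreas were among the largest rises. In the list of exocrine pancreas genes, which holds the enzymes that acinar cells secrete into the gut and their regulators, 27 of 31 tested genes rose, 2 fell and 2 were not called, with a median log2 fold change of 5.07. The list went from 0.0332–0.0460% of all counts in the libraries at 3 dpf to 0.904–1.17% at 5 dpf. The first gene of the list, *prss1* (ENSDARG00000042993, chromosome 16 from 25080764 to 25085327 of build GRCz11), encodes trypsin, the protease that activates the other zymogens. *prss1* stood at 34.7, 27.23, 39.8 and 31.3 CPM at 3 dpf and 1741, 2108, 1884 and 2188 CPM at 5 dpf. Every library at 5 dpf was far above every library at 3 dpf, with a log2 change of 5.90 ± 0.12 (adjusted p = 2.2e-13). The trypsin-like gene *prss59.1* (ENSDARG00000079274, chromosome 16 from 26012569 to 26013851) stood at 12.7, 6.55, 13.6 and 7.60 CPM at 3 dpf and 1299.9, 1558, 1494 and 1738 CPM at 5 dpf and had a log2 change of 7.23 ± 0.19 (adjusted p = 2.8e-12). Its neighbour in sequence *prss59.2* rose from 43.8 ± 11.3 to 1461 ± 165 CPM, and reads of such close copies may have been divided between them. Chymotrypsin-like *ctrl* rose by 6.18 on the log2 scale, elastases *ela2*, *ela2l* and *ela3l* by 7.74, 6.33 and 7.96, and the carboxypeptidase gene *cpa1* by 3.80.

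Enzymes for starch and fat rose with the proteases. Amylase *amy2a* (ENSDARG00000013856, chromosome 2 from 15612755 to 15626972) stood at 1.32, 0.437, 2.36 and 1.58 CPM at 3 dpf and 287, 413, 345 and 415 CPM at 5 dpf, with a log2 change of 7.996 ± 0.22 (adjusted p = 5.1e-12). Bile salt-activated lipases *cel.1* and *cel.2* rose from 12.8 ± 1.28 to 256 ± 30.8 CPM and from 5.53 ± 1.69 to 185 ± 37.6 CPM. The pancreatic phospholipase gene *pla2g1b* rose from 0.148 ± 0.159 to 48.6 ± 5.67 CPM, a log2 fold change of 8.28, or 9.20 without replicate 3 at 3 dpf. *sycn.2*, which encodes syncollin of the zymogen granule, stood at 1.40, 0.728, 1.55 and 1.13 CPM at 3 dpf and 159, 172, 163 and 178 CPM at 5 dpf and had a log2 change of 7.12 ± 0.12 (adjusted p = 4.1e-14). The largest log2 fold change of any gene that the naming rule took was that of *c6ast4*, an astacin-family protease gene (ENSDARG00000052578, chromosome 7 from 38635538 to 38638809), which stood at 0.221, 0, 0 and 0.150 CPM at 3 dpf and 263, 352, 323 and 392 CPM at 5 dpf, with a log2 change of 11.68 ± 0.26 (adjusted p = 6.2e-13). The libraries at 3 dpf held only 5 counts of it in all, and without replicate 1 at 3 dpf its log2 fold change was 12.48. Of the pancreas list, the genes that fell were *zgc:66313* (log2 fold change −0.94) and *gamt*, a creatine synthesis gene (−0.43). They are named because they were the exceptions, after their values were seen.

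**Figure D2:**
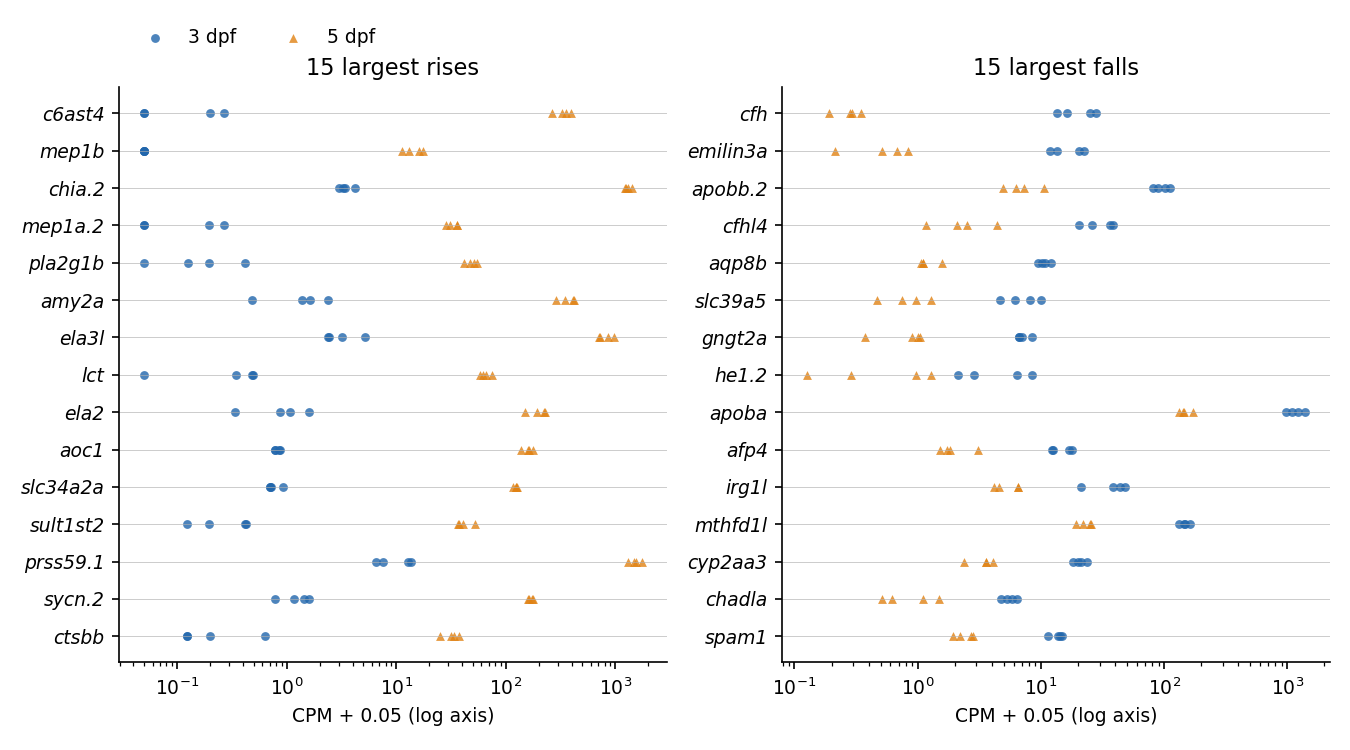
Levels of the 15 genes with the largest rises and the 15 with the largest falls under the naming rule in each WT library (x axis, CPM plus 0.05 on a log axis; blue circles 3 dpf, orange triangles 5 dpf, 4 libraries each). For *prss59.1* the libraries at 5 dpf lie at 1299.9 CPM or higher. The naming rule took only genes whose libraries of the 2 ages do not overlap.

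The absorptive lining of the intestine rose with the pancreas. Among enterocyte genes, 46 of 54 tested genes rose, 2 fell and 6 were not called, with a median log2 fold change of 2.59. The list went from 0.139–0.151% of all counts in the libraries at 3 dpf to 0.560–0.638% at 5 dpf. The first gene of the list, *fabp2*, which encodes the intestinal fatty acid-binding protein, stood at 1.91, 10.8, 2.28 and 2.63 CPM at 3 dpf and 36.2, 49.8, 34.8 and 30.7 CPM at 5 dpf. Replicate 2 at 3 dpf stood above the other libraries of its age but below all libraries at 5 dpf. The gene had a log2 change of 3.101 ± 0.37 (adjusted p = 9.4e-06), or 4.05 without that library. *chia.2*, an acidic chitinase gene (ENSDARG00000099185, chromosome 11 from 24001993 to 24008739), stood at 4.19, 3.35, 3.24 and 2.93 CPM at 3 dpf and 1224, 1420.5, 1254 and 1310.1 CPM at 5 dpf and had a log2 change of 8.56 ± 0.10 (adjusted p = 2e-15). Chitinases digest the shells of small prey. Meprin genes of the brush border rose from near 0, with *mep1a.2* going from 0.0920 ± 0.110 to 32.9 ± 3.82 CPM (log2 fold change 8.34, or 9.14 without replicate 3 at 3 dpf). *mep1b* had 0 counts in all 4 libraries at 3 dpf and 807 at 5 dpf, where it stood at 15.97, 13.1, 11.4 and 17.7 CPM. Against a floor of 3 counts over the libraries at 3 dpf, *mep1b* was at least 263-fold higher.

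Transporters and hydrolases of the gut surface rose in the same way. The peptide transporter genes *slc15a1a* and *slc15a1b* rose from 2.64 ± 0.733 to 80.7 ± 5.67 CPM and from 3.36 ± 0.746 to 255 ± 20.5 CPM. The amino acid transporter gene *slc6a19a.1* rose by 5.07 on the log2 scale. The phosphate transporter gene *slc34a2a* rose from 0.720 ± 0.109 to 123 ± 4.26 CPM, and lactase *lct* from 0.293 ± 0.207 to 65.0 ± 6.98 CPM. *aoc1*, which encodes the diamine oxidase that breaks down histamine, rose from 0.775 ± 0.0464 to 160.0 ± 16.2 CPM. *fabp6*, the ileal bile acid-binding protein gene, rose by 4.54, and *cd36*, a receptor for fatty acids, from 11.1 ± 1.52 to 219.7 ± 15.4 CPM. *cdx1a*, a regulator of gut identity (−0.50), and *alpi.1*, an intestinal alkaline phosphatase gene (−0.50), were the members that fell. A related gene, *alpi.2*, rose by 3.98.

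Mucus, gut hormone and gut muscle genes moved less together. Of this list 12 of 23 were higher and 3 lower at 5 dpf (median log2 fold change 0.45). *muc5.3*, a mucin gene, rose from 2.62 ± 0.333 to 13.3 ± 3.67 CPM, *mlnl*, a motilin-like hormone gene, from 0.922 ± 0.217 to 6.33 ± 0.859 CPM, and *desmb*, a desmin gene, from 1.88 ± 0.875 to 8.78 ± 1.74 CPM. *agr2*, which goblet cells need to make mucin, fell from 70.24 ± 2.91 to 46.4 ± 6.71 CPM, as did *smtnb* and *neurod1* (−0.48 and −0.44). Among islet genes, 15 of 25 were higher and 4 lower at 5 dpf (median log2 fold change 0.55). The insulin gene *ins* was near the limit of detection, at 0.441, 0.364, 0.442 and 0.978 CPM at 3 dpf and 0.977, 1.14, 0.841 and 0.383 CPM at 5 dpf, and was not called, with a log2 fold change of 0.60 (SE 0.42, adjusted p = 0.234). *pyyb*, a peptide YY gene, rose from 3.17 ± 0.631 to 11.7 ± 2.34 CPM and the prohormone convertase gene *pcsk1* from 17.7 ± 1.54 to 39.1 ± 4.04 CPM. The zinc transporter gene *slc30a8* of insulin granules fell from 17.3 ± 1.51 to 6.09 ± 1.25 CPM.

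Liver genes moved in both directions. Of 80 tested genes for plasma proteins and liver metabolism, 34 rose and 30 fell, with a median log2 fold change of 0.08 that turned to −0.07 with library totals alone, so no direction is given for the list. The first gene of the list, *fabp10a* (ENSDARG00000038439, chromosome 16 from 52512025 to 52516915), which encodes the liver fatty acid-binding protein, stood at 19.1, 17.98, 18.3 and 15.5 CPM at 3 dpf and 299, 380.1, 365 and 450.4 CPM at 5 dpf. The ages were widely separated, with a log2 change of 4.397 ± 0.12 (adjusted p = 5.1e-12). *cyp7a1*, the rate-limiting enzyme of bile acid synthesis, stood at 7.65, 5.24, 6.55 and 6.17 CPM at 3 dpf and 107, 126, 114 and 125 CPM at 5 dpf and had a log2 change of 4.204 ± 0.10 (adjusted p = 1.1e-12). *ahsg2*, a fetuin gene, rose from 0.184 ± 0.0733 to 3.66 ± 1.49 CPM. In the other direction, *cps1*, the first enzyme of the urea cycle, fell from 14.9 ± 2.31 to 3.58 ± 0.906 CPM, *leg1.2*, a liver growth gene, from 16.4 ± 3.51 to 5.27 ± 0.459 CPM, and the complement gene *c5* from 79.6 ± 7.71 to 26.96 ± 4.93 CPM.

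Enzymes that modify foreign compounds, steroids and bile acids leaned upwards. Among cytochrome P450 and conjugation genes, 50 of 81 tested genes rose, 16 fell and 15 were not called, with a median log2 fold change of 0.78. The list went from 0.155–0.167% of all counts in the libraries at 3 dpf to 0.344–0.370% at 5 dpf. *cyp3a65* (ENSDARG00000103295, chromosome 1 from 59338175 to 59348118), a P450 gene of gut and liver, stood at 8.83, 9.25, 10.24 and 8.58 CPM at 3 dpf and 917, 1026, 999 and 1087 CPM at 5 dpf and had a log2 change of 6.77 ± 0.08 (adjusted p = 2.5e-15). The rise of the list's share came with that of *cyp3a65*, and the part of this gene in it was not tested. The sulfotransferase gene *sult1st2* rose from 0.241 ± 0.154 to 41.5 ± 7.24 CPM. *cyp2x8* had 2 counts in all at 3 dpf and 353 at 5 dpf, a ratio of 170 with a 95% counting interval of 46.7 to 1410. The first gene of the list, *cyp1a*, which is induced through the aryl hydrocarbon receptor, went the other way. Its levels were 94.3, 83.4, 97.1 and 80.6 CPM at 3 dpf and 27.9, 30.4, 30.6 and 30.9 CPM at 5 dpf, with a log2 change of −1.57 ± 0.07 (adjusted p = 8.9e-10). *cyp26a1*, which degrades retinoic acid, fell from 56.1 ± 3.52 to 12.8 ± 0.590 CPM, and *cyp2aa3* and *cyp2aa9* fell by 2.64 and 1.63 on the log2 scale.

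Most genes of the lipoprotein list fell, and levels in whole larvae do not give the tissue that these transcripts come from. Lipoproteins built around apolipoprotein B carry fat from the yolk to the tissues. Of the list of apolipoproteins and vitellogenins 6 of 24 were higher and 16 lower at 5 dpf (median log2 fold change −0.35), and it went from 1.92–2.22% of all counts in the libraries at 3 dpf to 1.09–1.38% at 5 dpf. *apoba* (ENSDARG00000042780, chromosome 17 from 30704068 to 30727966) stood at 1082, 1213, 973 and 1386 CPM at 3 dpf and 132, 141, 146 and 172 CPM at 5 dpf, with a log2 change of −2.98 ± 0.11 (adjusted p = 1e-10). *apobb.2* stood at 81.4, 101, 88.7 and 111 CPM at 3 dpf and 6.27, 7.30, 4.91 and 10.6 CPM at 5 dpf and had a log2 change of −3.72 ± 0.16 (adjusted p = 6e-10). *apoa1a*, the first gene of the list, fell from 658 ± 72.3 to 379 ± 26.95 CPM, *apoc1* from 632 ± 72.0 to 201 ± 24.4 CPM and *apoa2* from 3187 ± 263 to 1870.0 ± 183 CPM. The 6 that rose were *apoda.2* (from 30.8 ± 6.58 to 273 ± 18.6 CPM), the low-density lipoprotein receptor gene *ldlra* (1.59), *apoa4b.2* (1.34), lipoprotein lipase *lpl* (1.01), *mttp*, which loads apolipoprotein B with lipid (0.79), and *apoa4b.3* (0.43). *apoda.2* overlaps *apoda.1* on the other strand, and the counting is not stated to use strand.

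Lipid metabolism inside cells was mixed. In the fatty acid oxidation list 21 of 49 were higher and 14 lower at 5 dpf (median log2 fold change 0.17). The mitochondrial uncoupling gene *ucp1* stood at 101, 116, 113 and 112 CPM at 3 dpf and 579, 817, 665 and 993 CPM at 5 dpf, with a log2 change of 2.79 ± 0.14 (adjusted p = 1.7e-09). *acsl5*, which activates fatty acids, rose from 39.7 ± 6.51 to 192 ± 18.2 CPM, while *cpt1ab*, the gene of the carnitine palmitoyltransferase that admits them to mitochondria, fell from 116 ± 2.69 to 74.7 ± 4.096 CPM. *hadhaa* and *acaa2*, which act later in the same pathway, fell by 0.86 and 0.75 on the log2 scale. Among cholesterol synthesis genes 13 of 30 were higher and 7 lower at 5 dpf (median log2 fold change 0.09), or 11 higher and 9 lower (median −0.06) with library totals alone. *dhcr7* and *msmo1* of the later steps rose from 19.5 ± 1.07 to 45.9 ± 3.81 CPM and from 4.004 ± 0.381 to 9.57 ± 3.01 CPM, and the earlier enzymes *idi1*, *mvk* and *fdps* fell from 83.4 ± 4.53 to 37.5 ± 4.01 CPM, from 6.42 ± 0.775 to 3.57 ± 0.673 CPM and from 61.1 ± 2.19 to 37.8 ± 1.77 CPM. *hmgcra*, a gene of the rate-limiting reductase, rose from 6.59 ± 1.21 to 10.18 ± 1.70 CPM.

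Most genes of a joint list of glucocorticoid targets and fasting genes rose. Glucocorticoids raise glucose output and muscle protein breakdown through receptor targets such as *fkbp5*. In the list of glucocorticoid and fasting genes, 26 of 37 tested genes rose, 7 fell and 4 were not called, with a median log2 fold change of 0.44. *fkbp5*, the first gene of the list, stood at 97.0, 106, 74.8 and 86.8 CPM at 3 dpf and 324, 324, 275 and 315 CPM at 5 dpf and had a log2 change of 1.77 ± 0.09 (adjusted p = 3.8e-09). In *elavl3:Gal4* larvae *fkbp5* did not rise, as given further on. *pck1*, the rate-limiting enzyme of glucose synthesis, stood at 142, 208, 207 and 187 CPM at 3 dpf and 705, 814, 758 and 829.7 CPM at 5 dpf, with a log2 change of 2.06 ± 0.10 (adjusted p = 2.3e-09). *tat*, which degrades tyrosine, rose from 0.977 ± 0.247 to 12.9 ± 3.17 CPM, and *fbxo32*, a ubiquitin ligase gene of muscle wasting, from 2.92 ± 0.713 to 16.2 ± 4.32 CPM. The 7 that fell included *asns* and *atf3* of the amino acid stress response (−1.33 and −0.93) and the metallothionein gene *mt2* (−1.27).

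Among the brain's own hormone genes 17 of 37 were higher and 5 lower at 5 dpf (median log2 fold change 0.46). *crhb*, the corticotropin-releasing hormone gene, rose from 2.79 ± 0.110 to 8.01 ± 1.25 CPM, *rln3a*, a relaxin gene, from 2.04 ± 0.928 to 5.86 ± 0.983 CPM and *ccka*, a cholecystokinin gene, from 4.39 ± 0.833 to 10.1 ± 1.19 CPM. *otpa* and *otpb*, transcription factors that specify neuroendocrine neurons, fell from 122 ± 15.9 to 81.3 ± 9.18 CPM and from 55.7 ± 7.82 to 33.3 ± 4.84 CPM. In the pituitary list growth hormone *gh1* stood at 4.34, 3.71, 4.49 and 4.36 CPM at 3 dpf and 18.1, 25.1, 15.9 and 23.4 CPM at 5 dpf and had a log2 change of 2.29 ± 0.16 (adjusted p = 4.8e-08). Only 9 pituitary genes were tested, with 3 higher and 3 lower. Of 24 tested thyroid and steroid genes 9 rose and 6 fell. *tg*, thyroglobulin, fell from 20.7 ± 1.89 to 5.70 ± 1.93 CPM, its regulators *pax8* and *nkx2.4b* fell by 1.09 and 0.88 on the log2 scale, and *duox*, the oxidase of hormone synthesis, rose from 3.94 ± 1.61 to 18.8 ± 2.45 CPM.

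Most cell division genes fell, and 1 rose. Among genes of DNA replication and mitosis, 91 of 130 tested genes fell, 1 rose and 38 were not called, with a median log2 fold change of −0.42. Against this, 28.7% of all genes tested fell. The list went from 0.973–1.08% of all counts in the libraries at 3 dpf to 0.599–0.703% at 5 dpf. *pcna* (ENSDARG00000054155, chromosome 10 from 40821804 to 40826657), the sliding clamp of replication and the first gene of the list, stood at 415, 440.0, 425 and 429 CPM at 3 dpf and 310.4, 278, 289 and 252 CPM at 5 dpf. The fall was modest in size and the ages did not overlap, with a log2 change of −0.60 ± 0.06 (adjusted p = 2.1e-06). *ccne2*, a cyclin of the entry into S phase, fell from 33.4 ± 1.58 to 15.5 ± 2.69 CPM, the mitotic cyclin gene *ccnb3* from 11.7 ± 3.08 to 5.68 ± 1.48 CPM and the condensin gene *ncapg* from 5.07 ± 1.97 to 1.35 ± 0.363 CPM. The member that rose was *dlgap5*, a mitotic spindle gene, at 0, 0.146, 0 and 0 CPM at 3 dpf and 0.977, 2.57, 1.82 and 2.91 CPM at 5 dpf, a log2 fold change of 5.51, or 7.86 without replicate 2 at 3 dpf, the only library of that age with a count. *ccne2*, *ccnb3*, *ncapg* and *dlgap5* each overlap a gene on the other strand, and the counting is not stated to use strand.

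Most *hox* genes fell as well, and proneural and progenitor genes leaned downwards. The *hox* genes set the position of cells along the body axis. Of 44 tested *hox* genes 34 fell and 0 rose, and the list went from 0.0803–0.0819% of all counts in the libraries at 3 dpf to 0.0487–0.0527% at 5 dpf. The median log2 fold change was −0.51. *hoxa1a*, the first gene of the list, had a log2 change of −0.60 ± 0.17 (adjusted p = 0.00898), and *hoxc1a*, *hoxb6a* and *hoxd4a* fell most among those the rule took (−0.995, −0.97 and −0.94). *hoxc1a* stood at 17.5, 25.2, 19.2 and 24.3 CPM at 3 dpf and 11.5, 10.3, 10.9 and 10.6 CPM at 5 dpf. Among proneural factors and neural progenitor genes 7 of 57 were higher and 26 lower at 5 dpf (median log2 fold change −0.16), and with library totals alone 2 higher and 34 lower (median −0.31). *neurog1*, which commits cells to become neurons, had a log2 change of −0.43 ± 0.13 (adjusted p = 0.0143). The Notch targets *her4.3* and *her4.2* fell, *her4.3* from 3.68 ± 0.820 to 0.977 ± 0.176 CPM and the copies of *her4.2* from 11.8 ± 1.29 to 5.12 ± 0.889 CPM and from 26.6 ± 2.29 to 14.8 ± 2.86 CPM, and near-identical *her4* copies may share reads. *ascl1b*, another proneural factor, rose (1.003).

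The protein machinery moved in opposite directions at its start and its end. Among genes of the cytosolic ribosome, 75 of 84 tested genes rose, 3 fell and 6 were not called, with a median log2 fold change of 0.47. The list went from 6.92–7.55% of all counts in the libraries at 3 dpf to 9.03–9.25% at 5 dpf. *rps2* stood at 3428, 3247, 3438 and 3156 CPM at 3 dpf and 5209.8, 5147, 5253 and 5486 CPM at 5 dpf, with a log2 change of 0.67 ± 0.04 (adjusted p = 3.6e-08). *rpl11* rose from 1012 ± 53.5 to 1709 ± 84.8 CPM, and *rplp0* from 3012 ± 120.2 to 4629 ± 164 CPM. *rpl21* rose by 3.01, but the gene overlaps another on the other strand and was low, 7.32 ± 0.837 to 59.0 ± 28.7 CPM. *rpl7l1* (−0.38), *rpl9* (−1.49) and *rpl10* (−1.20) were the members that fell, and the rows named *rpl9* and *rpl10* held few counts for ribosomal protein genes, at 1.60 ± 0.308 to 0.559 ± 0.175 CPM and 8.76 ± 3.43 to 3.77 ± 0.729 CPM.

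The proteasome, which degrades ubiquitin-tagged proteins, fell. Of its 50 tested genes 42 fell and 4 rose (median log2 fold change −0.63), and the list went from 0.444–0.453% of all counts in the libraries at 3 dpf to 0.241–0.266% at 5 dpf. The regulatory particle genes *psmd12*, *psmc3* and *psmd8* fell most among those the rule took. *psmd12* stood at 153, 165, 155 and 159 CPM at 3 dpf and 75.8, 73.3, 72.0 and 73.6 CPM at 5 dpf, with a log2 change of −1.10 ± 0.05 (adjusted p = 7.8e-10). *psmc3* and *psmd8* fell by 1.16 each, and the core subunit gene *psma1* by 0.43. The 4 that rose were *psma6l* (1.56), *psmb10* of the immunoproteasome (0.66), the activator gene *psme2* (0.81) and the assembly gene *psmg3* (0.41). With library totals alone the count of genes that fell was again 42, and 73 of 84 ribosomal protein genes still rose.

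**Figure D3:**
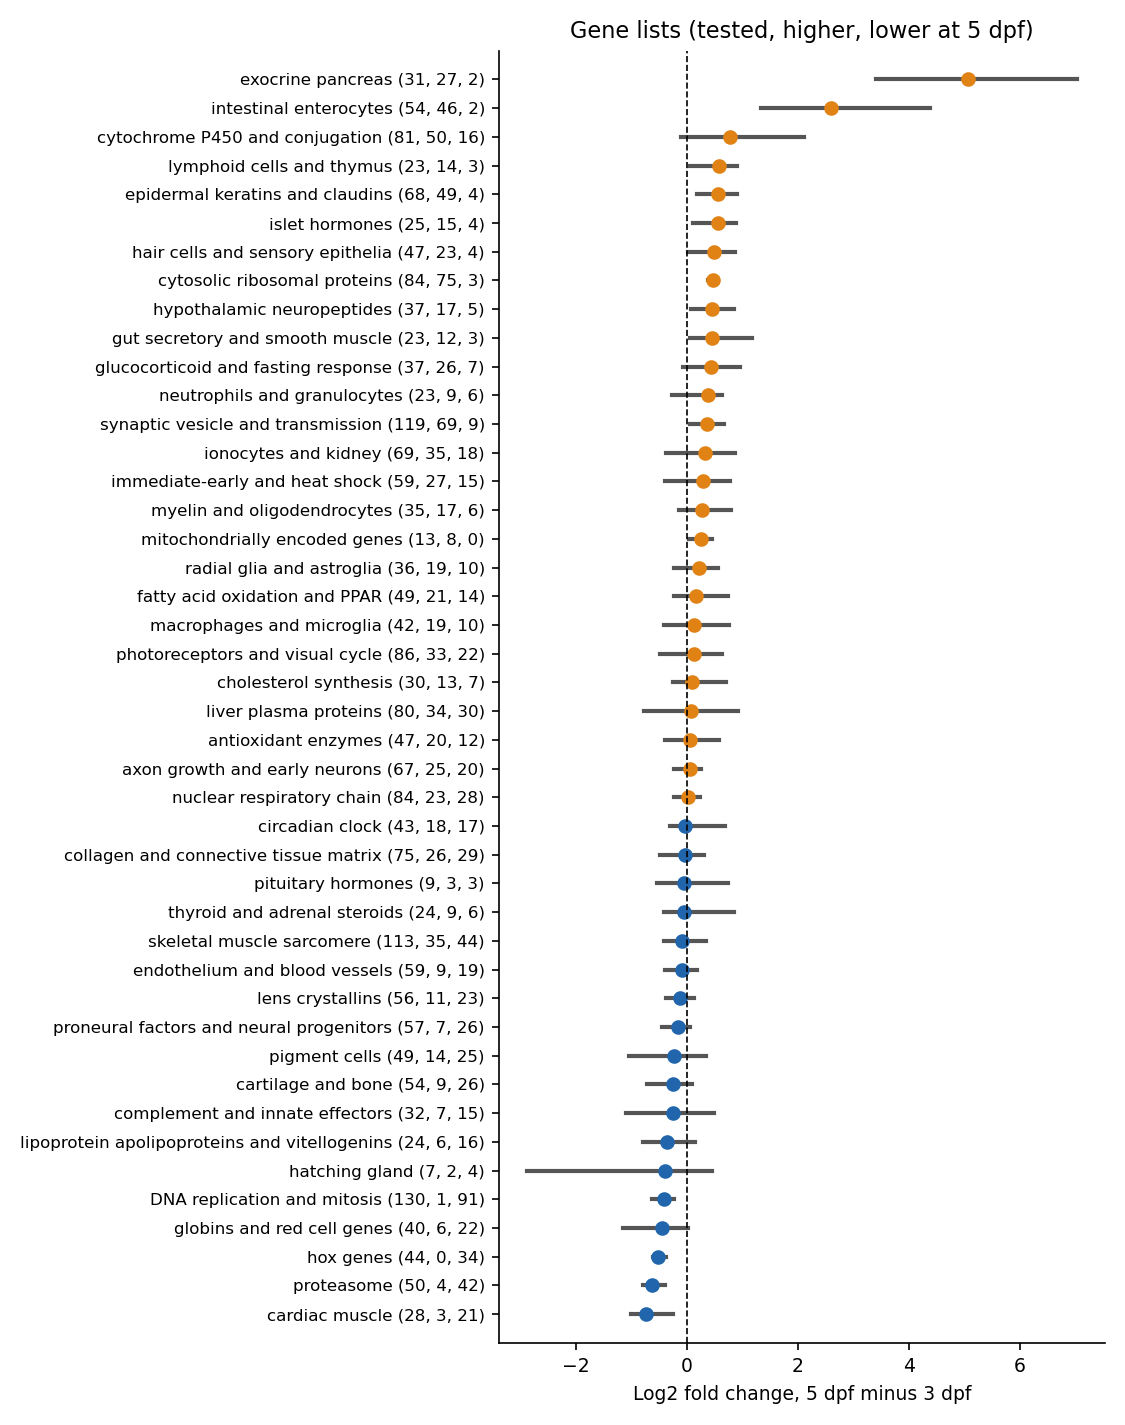
Change between 3 and 5 dpf in WT larvae for the tested members of 44 gene lists (x axis, log2 fold change, 5 dpf minus 3 dpf; points are medians, bars the range from the lower to the upper quartile, and labels give the number tested, higher and lower). The dashed line is the median of all genes tested, −0.003, and the exocrine pancreas list stands farthest to the right at a median of 5.07.

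Genes for synaptic transmission leaned upwards. Of the tested genes of synaptic vesicles, receptors and transmitters, 69 rose, 9 fell and 41 were not called, with a median log2 fold change of 0.36, or 58 higher and 17 lower (median 0.21) with library totals alone. Its share of counts went from 0.741–0.819% of all counts in the libraries at 3 dpf to 0.894–1.07% at 5 dpf. The first gene of the list, *snap25a*, which drives vesicle fusion, stood at 345, 353, 350.0 and 309 CPM at 3 dpf and 540.5, 497, 570.2 and 602 CPM at 5 dpf and had a log2 change of 0.70 ± 0.07 (adjusted p = 8.6e-07). *ddc*, the enzyme that makes dopamine and serotonin, stood at 4.78, 5.39, 5.16 and 4.06 CPM at 3 dpf and 21.3, 23.3, 23.5 and 25.1 CPM at 5 dpf, with a log2 change of 2.26 ± 0.11 (adjusted p = 1.3e-09). *itpr1b*, a calcium channel of internal stores, rose from 17.97 ± 1.55 to 53.1 ± 3.81 CPM, and the calcium buffer gene *calb2a* from 14.9 ± 1.94 to 37.3 ± 1.71 CPM. Among those that fell were a glycine receptor gene, *glra4a* (−1.15), and *napbb* (−0.46).

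Genes of early neurons were split, and the split depended on the scaling. Among genes of axon growth 25 of 67 were higher and 20 lower at 5 dpf (median log2 fold change 0.06), beside 29.3% higher and 28.7% lower over all genes. With library totals alone 14 higher and 27 lower (median −0.09) in that list, and it went from 1.08–1.14% of all counts in the libraries at 3 dpf to 0.970–1.06% at 5 dpf. *gap43*, the growth cone marker at the head of the list, fell from 133 ± 12.6 to 104 ± 4.49 CPM, and the guidance genes *unc5a*, *ntn1a* and *sema3ab* fell by 1.23, 0.78 and 0.60 on the log2 scale. *stmn3* and *stmn4*, stathmins of neurons, rose from 24.3 ± 4.397 to 61.1 ± 5.89 CPM and from 61.4 ± 5.47 to 139 ± 13.1 CPM, and the neurofilament gene *inaa* from 9.74 ± 3.004 to 28.3 ± 2.53 CPM. Of 35 tested genes of myelin and oligodendrocytes 17 rose and 6 fell, and with library totals alone 15 higher and 10 lower (median 0.13). *mbpa* (ENSDARG00000036186, chromosome 19 from 21814047 to 21832630), myelin basic protein, stood at 29.3, 30.8, 26.7 and 27.5 CPM at 3 dpf and 152, 151, 153 and 152 CPM at 5 dpf and had a log2 change of 2.41 ± 0.06 (adjusted p = 1.4e-12). *plp1b*, proteolipid protein, rose from 8.37 ± 0.883 to 42.7 ± 3.92 CPM, and *egr2b*, the regulator of Schwann cell myelination, from 4.995 ± 0.597 to 12.8 ± 0.478 CPM. *cspg4* and *pdgfra*, which mark oligodendrocyte precursors, fell from 53.8 ± 5.32 to 25.4 ± 2.73 CPM and from 79.3 ± 6.81 to 56.2 ± 3.50 CPM.

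Astroglial genes were likewise mixed, and 19 of 36 were higher and 10 lower at 5 dpf (median log2 fold change 0.22). The glutamate transporter gene *slc1a3a* rose from 41.3 ± 1.39 to 76.7 ± 2.78 CPM and *mlc1* from 3.80 ± 1.12 to 8.35 ± 1.46 CPM. *fabp7a*, a radial glia marker, fell from 534 ± 49.9 to 329.6 ± 13.7 CPM.

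Some activity-regulated genes of neurons rose sharply. Immediate-early genes are switched on within minutes of a stimulus, so their level also follows the handling and hour of collection, which the labels do not give. In the list of immediate-early and heat shock genes 27 of 59 were higher and 15 lower at 5 dpf (median log2 fold change 0.29). *npas4a*, which neurons switch on with activity, stood at 4.12, 4.15, 4.64 and 3.08 CPM at 3 dpf and 79.6, 71.7, 86.4 and 85.7 CPM at 5 dpf and had a log2 change of 4.33 ± 0.11 (adjusted p = 1.8e-12). *egr4* rose from 11.3 ± 1.37 to 56.3 ± 5.45 CPM. *fosab*, the first of the list, rose from 24.3 ± 6.505 to 52.4 ± 7.91 CPM, while *fosl1a* fell by 2.05 on the log2 scale. The chaperone gene *hspa8* rose from 27.16 ± 0.732 to 303 ± 73.2 CPM, and the mitochondrial chaperone gene *hspd1* and the muscle chaperone gene *hsp90aa1.1* fell from 281 ± 7.13 to 117 ± 10.6 CPM and from 89.0 ± 4.14 to 43.1 ± 3.01 CPM.

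Clock genes moved in both directions, 18 up and 17 down of 43 tested (median log2 fold change −0.03). *per1a*, the first gene of the list, rose from 20.2 ± 2.23 to 39.7 ± 2.02 CPM. *nr1d1*, a repressor in the clock's second loop, stood at 64.2, 51.2, 66.1 and 53.6 CPM at 3 dpf and 179.9, 197, 197 and 196 CPM at 5 dpf, with a log2 change of 1.71 ± 0.08 (adjusted p = 1.1e-09). The clock output genes *hlfa* and *dbpb* rose from 42.7 ± 2.11 to 151 ± 6.05 CPM and from 9.81 ± 0.924 to 30.9 ± 1.46 CPM. *cry5* and *cry1bb*, cryptochrome genes, fell from 41.4 ± 1.83 to 12.3 ± 1.02 CPM and from 69.7 ± 5.26 to 26.1 ± 3.24 CPM. These levels change over the day, and the effect of age and that of the hour of collection cannot be told apart for them.

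In the eye, photoreceptor genes moved in both directions. Of 86 tested genes of photoreceptors and the visual cycle 33 rose and 22 fell (median log2 fold change 0.13), or 26 higher and 32 lower (median −0.02) with library totals alone. The share of this list called was 64.0%, beside 58.0% over all genes. Rod opsin *rho* stood at 641, 396, 802 and 596 CPM at 3 dpf and 1353, 1058, 1351 and 1245 CPM at 5 dpf, with a log2 change of 1.0402 ± 0.16 (adjusted p = 7.6e-05). The rod gene *pde6ga* rose from 0.516 ± 0.204 to 4.27 ± 0.667 CPM, *rp1l1b* from 0.866 ± 0.420 to 5.25 ± 1.09 CPM and *rbp3*, which carries retinoids between cells, from 49.0 ± 15.7 to 111 ± 20.3 CPM. *gngt2a*, a cone transducin subunit gene, fell instead, at 8.46, 6.55, 6.55 and 6.92 CPM at 3 dpf and 0.326, 0.958, 0.841 and 0.996 CPM at 5 dpf, with a log2 change of −3.15 ± 0.24 (adjusted p = 1.4e-07). *tulp1a* and *tulp1b*, needed for protein transport in photoreceptors, fell from 27.03 ± 2.85 to 5.54 ± 0.782 CPM and from 7.47 ± 1.28 to 2.84 ± 0.751 CPM. Among lens genes 11 of 56 were higher and 23 lower at 5 dpf (median log2 fold change −0.13). *cryaa*, the alpha-crystallin chaperone, rose from 28.3 ± 3.94 to 53.7 ± 4.88 CPM, *crygn1* from 3.96 ± 0.929 to 19.95 ± 2.301 CPM, and *crygm2d1* and *crygm2d6* fell by 1.35 and 1.15 on the log2 scale. The *crygm2d* genes are close copies of each other and their reads may be divided among them. *hsf4*, a lens regulator, fell from 14.3 ± 1.93 to 6.13 ± 0.682 CPM.

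Hair cell genes of the ear and lateral line leaned upwards, and 23 of 47 were higher and 4 lower at 5 dpf (median log2 fold change 0.48), or 21 higher and 7 lower (median 0.33) with library totals alone. *otofb* (ENSDARG00000020581, chromosome 17 from 50313650 to 50374005), an otoferlin gene that releases transmitter from hair cells, stood at 25.3, 25.8, 27.03 and 23.4 CPM at 3 dpf and 76.4, 78.6, 62.3 and 69.8 CPM at 5 dpf and had a log2 change of 1.4996 ± 0.08 (adjusted p = 4.2e-09). The calcium-binding protein genes *pvalb8* and *s100s* rose from 65.7 ± 18.7 to 367 ± 11.9 CPM and from 15.4 ± 1.28 to 52.3 ± 3.71 CPM. The 4 that fell were *pcdh15b* of the tip link (−0.63) and the early regulators *ebf3a*, *eya1* and *six1b* (−0.30, −0.26 and −0.26).

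Most heart genes fell, and skeletal muscle genes were divided. Of 28 tested cardiac genes 21 fell and 3 rose, with a median log2 fold change of −0.73. *myl7*, the cardiac myosin light chain gene at the head of the list, stood at 30.4, 33.0, 24.3 and 31.5 CPM at 3 dpf and 15.4, 15.4, 14.6 and 18.5 CPM at 5 dpf, with a log2 change of −0.90 ± 0.11 (adjusted p = 8.7e-06). *nppa*, a natriuretic peptide gene, fell from 13.5 ± 2.16 to 4.51 ± 0.909 CPM, the myosin gene *myh7l* from 41.9 ± 3.32 to 8.98 ± 2.90 CPM and *tbx5a*, a regulator of heart and fin, from 8.19 ± 0.755 to 3.21 ± 0.581 CPM. The 3 that rose were *zgc:195023* (0.65) and 1 of the pair of genes under each of the names *atp2a2a*, a calcium pump, and *actc1a*, cardiac actin. For *atp2a2a*, ENSDARG00000029439 rose from 47.6 ± 5.004 to 109 ± 12.6 CPM and ENSDARG00000005122 had a log2 fold change of −0.36. For *actc1a*, ENSDARG00000076126 had 0.36 and ENSDARG00000042535 had −0.49. In the skeletal muscle list 35 of 113 were higher and 44 lower at 5 dpf (median log2 fold change −0.09), a median that moved to −0.23 with library totals alone. *atp2a1l*, a fast-fibre calcium pump gene, stood at 236, 226, 266 and 269 CPM at 3 dpf and 984, 1034, 1135 and 1285 CPM at 5 dpf and rose by 2.15 on the log2 scale. *mybpc2a* rose from 7.36 ± 3.17 to 18.3 ± 1.88 CPM. The troponin gene *tnnt3a* stood at 464, 352, 413 and 376 CPM at 3 dpf and 96.1, 95.1, 106 and 107 CPM at 5 dpf, with a log2 change of −1.99 ± 0.08 (adjusted p = 3.4e-10), and the myosin gene *myhb* fell from 218 ± 20.3 to 58.8 ± 10.4 CPM.

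Cartilage and bone genes leaned downwards. Of 54 tested cartilage and bone genes 9 rose and 26 fell (median log2 fold change −0.24). The cartilage matrix genes *matn3a* and *col9a1b* fell from 127 ± 24.7 to 35.5 ± 13.7 CPM and from 126 ± 27.3 to 42.0 ± 10.8 CPM, and *mmp9*, a protease that remodels matrix, from 36.1 ± 7.90 to 8.66 ± 2.099 CPM. *spp1*, osteopontin, rose from 3.27 ± 0.786 to 12.2 ± 1.09 CPM, *ucmaa* of maturing cartilage from 2.29 ± 0.322 to 9.31 ± 0.902 CPM and the tendon gene *tnmd* from 39.7 ± 2.90 to 91.0 ± 6.503 CPM. Collagens and other matrix genes were divided, and 26 of 75 were higher and 29 lower at 5 dpf (median log2 fold change −0.04), or 16 higher and 36 lower (median −0.19) with library totals alone. *col1a1a* was not called, with a log2 fold change of −0.06 (SE 0.09, adjusted p = 0.603). *emilin3a*, a matrix glycoprotein gene of the embryonic notochord, had one of the largest falls, from 11.8, 20.2, 13.5 and 22.1 CPM at 3 dpf to 0.163, 0.778, 0.631 and 0.460 CPM at 5 dpf, with a log2 change of −4.97 ± 0.31 (adjusted p = 1.8e-08). *col17a1b*, which anchors the epidermis, rose from 25.7 ± 1.13 to 85.4 ± 2.84 CPM.

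Most skin genes rose. Of 68 tested keratins, claudins and other epidermal genes 49 rose and 4 fell (median log2 fold change 0.56), or 45 higher and 10 lower (median 0.41) with library totals alone. The share of these genes went from 2.32–2.53% of all counts in the libraries at 3 dpf to 3.38–3.66% at 5 dpf. *krt4*, the first of the list, had a log2 change of 0.50 ± 0.10 (adjusted p = 0.00086). *krt97* (ENSDARG00000000212, chromosome 22 from 11756040 to 11759106) stood at 195, 181, 193 and 186 CPM at 3 dpf and 1142, 1152, 1229 and 1227 CPM at 5 dpf, with a log2 change of 2.65 ± 0.05 (adjusted p = 1.8e-13). *grhl3*, a regulator of the epidermal barrier, and *cbln20* rose by 2.504 and 2.42 on the log2 scale, *grhl3* by 3.28 without replicate 3 at 3 dpf. The members that fell were *ponzr1* (−0.58), *s100u* (−0.45), *tfap2c* (−0.32) and *cldn5a* (−0.31), the last also a claudin of blood vessels.

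Among genes of ionocytes, the salt-handling cells of the skin, and of the kidney 35 of 69 were higher and 18 lower at 5 dpf (median log2 fold change 0.32). *rhcga*, an ammonia channel gene, stood at 70.9, 46.4, 49.3 and 39.4 CPM at 3 dpf and 345, 379.8, 315 and 356 CPM at 5 dpf, with a log2 change of 2.76 ± 0.14 (adjusted p = 2.2e-09), and its relative *rhcgl1* rose from 0.459 ± 0.302 to 10.6 ± 1.58 CPM. The bicarbonate exchanger gene *slc4a2a* fell from 36.5 ± 6.12 to 16.9 ± 0.873 CPM, and the carbonic anhydrase gene *ca2*, the first of the list, fell from 64.5 ± 3.27 to 39.5 ± 2.33 CPM.

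Hatching gland genes were divided, with 4 of 7 tested lower and 2 higher. Hatching enzyme *he1.1* stood at 10.3, 61.9, 18.3 and 50.3 CPM at 3 dpf and 4.24, 1.44, 10.7 and 5.13 CPM at 5 dpf and had a log2 change of −2.72 ± 0.56 (adjusted p = 0.0009), or −3.34 without replicate 3 at 5 dpf. *he1.2* fell from 4.91 ± 2.99 to 0.612 ± 0.544 CPM. Both genes overlap *aox5* on the other strand. *si:ch211-167j6.5* fell by 4.52 on the log2 scale and *xbp1*, which secretory cells need, by 0.39, and the 2 that rose were *rgs13* (1.23) and *klf17* (0.92).

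Globin and red cell genes leaned downwards. Of 40 tested globin and red cell genes 22 fell and 6 rose (median log2 fold change −0.44), and the list went from 0.408–0.525% of all counts in the libraries at 3 dpf to 0.188–0.212% at 5 dpf. *hbae3* (ENSDARG00000079305, chromosome 3 from 55146418 to 55147788), an embryonic alpha globin gene, stood at 1709, 1776, 1603 and 2062 CPM at 3 dpf and 391, 326, 417 and 306 CPM at 5 dpf and had a log2 change of −2.31 ± 0.10 (adjusted p = 6e-10). *hbbe1.1*, an embryonic beta globin gene, fell from 1024 ± 170.4 to 317 ± 46.4 CPM. Globin copies are near-identical and may share reads. Among the 6 that rose were *prdx2*, a peroxiredoxin gene, from 266 ± 12.9 to 469 ± 27.22 CPM, and *slc11a2*, an iron transporter gene, from 46.6 ± 5.16 to 75.7 ± 2.67 CPM.

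Lymphoid genes leaned upwards and complement genes downwards. In the list of lymphoid cells and thymus 14 of 23 were higher and 3 lower at 5 dpf (median log2 fold change 0.57), or 8 higher and 4 lower (median 0.42) with library totals alone. *rag1* (ENSDARG00000052122, chromosome 25 from 9003230 to 9009902), which recombines antigen receptor genes, stood at 2.58, 2.403, 3.09 and 1.73 CPM at 3 dpf and 18.1, 22.1, 19.9 and 16.8 CPM at 5 dpf and had a log2 change of 2.97 ± 0.16 (adjusted p = 3.5e-09). *rag2* rose from 1.05 ± 0.383 to 3.33 ± 0.611 CPM and *ikzf1*, a lymphocyte regulator, from 1.55 ± 0.309 to 4.34 ± 1.05 CPM. *il2rgb* (−0.79), *pax5* (−0.99), which also patterns the brain, and *foxn1*, a regulator of thymic epithelium, were the members that fell. *foxn1* had a log2 change of −0.44 ± 0.17 (adjusted p = 0.0419). Its call was lost without replicate 2, 3 or 4 at 3 dpf or replicate 2 or 3 at 5 dpf, with log2 fold changes of −0.31 to −0.49. Among complement genes and innate effectors 7 of 32 were higher and 15 lower at 5 dpf (median log2 fold change −0.25). *c3a.1*, the first tested gene of the list, fell from 435 ± 26.4 to 180.5 ± 23.9 CPM.

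*cfh*, complement factor H (ENSDARG00000100442, chromosome 22 from 23641801 to 23668468), had the largest fall that the naming rule took, at 16.1, 24.8, 13.4 and 27.9 CPM at 3 dpf and 0.244, 0.299, 0.140 and 0.230 CPM at 5 dpf, with a log2 change of −6.42 ± 0.35 (adjusted p = 4.9e-09). *cfhl4*, a related gene, stood at 20.4, 36.3, 25.8 and 38.7 CPM at 3 dpf and 2.44, 2.04, 1.12 and 4.37 CPM at 5 dpf and had a log2 change of −3.62 ± 0.29 (adjusted p = 2.1e-07). The change of both also differed from that in *elavl3:Gal4; UAS:fynY531F* larvae, as given further on. *cfp*, properdin, rose from 11.6 ± 1.14 to 35.3 ± 7.33 CPM.

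Among macrophage and microglia genes 19 of 42 were higher and 10 lower at 5 dpf (median log2 fold change 0.14), or 17 higher and 13 lower (median −0.01) with library totals alone. The share of counts on the list fell, from 0.205–0.245% of all counts in the libraries at 3 dpf to 0.138–0.160% at 5 dpf, so no direction is given for it. The list includes *apoc1*, also a member of the apolipoprotein list, which fell from 632 ± 72.0 to 201 ± 24.4 CPM. The part of *apoc1* in the fall of the share was not tested. *csf1ra*, a receptor gene that macrophages and pigment cells need, fell from 30.9 ± 2.76 to 22.8 ± 2.91 CPM, with a log2 change of −0.43 ± 0.10 (adjusted p = 0.00172). *mpeg1.1*, a macrophage marker, fell too, from 1.28 ± 0.236 to 0.658 ± 0.269 CPM with overlapping libraries and a log2 change of −0.94 ± 0.32 (adjusted p = 0.0227). That call was lost without replicate 4 at 3 dpf or without replicate 1 or 2 at 5 dpf (log2 fold changes of −0.80 to −0.84). Its neighbour in name *mpeg1.2* rose from 7.59 ± 0.820 to 17.99 ± 2.14 CPM. Antigen presentation genes *cd74a* and *cd74b* rose from 0.627 ± 0.227 to 4.57 ± 0.467 CPM and from 2.58 ± 0.716 to 6.34 ± 0.941 CPM. *irg1l*, the itaconate-producing enzyme of activated macrophages and skin, stood at 21.0, 43.6, 38.3 and 48.3 CPM at 3 dpf and 6.52, 6.41, 4.14 and 4.52 CPM at 5 dpf, with a log2 change of −2.80 ± 0.24 (adjusted p = 3.8e-07). Among granulocyte genes 9 of 23 were higher and 6 lower at 5 dpf (median log2 fold change 0.39), 65.2% called beside 58.0% over all genes. The rise of that list's share, from 0.0566–0.0589% of all counts in the libraries at 3 dpf to 0.145–0.178% at 5 dpf, came with *cpa5*, a carboxypeptidase gene listed as a mast cell marker, which alone rose from 35.4 ± 10.3 to 1122 ± 163 CPM. The level of *cpa5* moved with those of the pancreatic proteases given above, and the part of the pancreas in it was not tested.

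Pigment cell genes leaned downwards, and 14 of 49 were higher and 25 lower at 5 dpf (median log2 fold change −0.24). *paics*, a purine synthesis gene, stood at 548, 754, 659 and 625 CPM at 3 dpf and 168, 176, 202 and 194 CPM at 5 dpf, with a log2 change of −1.80 ± 0.09 (adjusted p = 2.1e-09), and *atic*, another gene of that pathway, fell from 171 ± 20.6 to 47.9 ± 2.39 CPM. *mthfd1l*, a mitochondrial folate gene outside the list that supplies one-carbon units, fell from 147 ± 13.3 to 22.8 ± 2.76 CPM. *pnp4b*, a purine nucleoside phosphorylase gene, rose from 3.88 ± 0.834 to 80.2 ± 11.8 CPM. *dct* of melanin synthesis, the first gene of the list, had a log2 change of −0.50 ± 0.15 (adjusted p = 0.0116). Of 59 tested blood vessel genes 9 rose, 19 fell and 31 were not called, beside 58.0% called over all genes, and with library totals alone 5 higher and 28 lower (median −0.24). *lyve1a*, a gene of lymphatic vessels, fell from 15.6 ± 0.728 to 3.18 ± 0.553 CPM, and *abcb4*, an efflux pump gene, rose from 15.7 ± 1.81 to 147 ± 12.8 CPM.

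Nuclear genes of the respiratory chain were divided, and mitochondrially encoded ones leaned upwards on the TMM scale. Of 84 tested nuclear genes of the respiratory chain 23 rose and 28 fell (median log2 fold change 0.01), or 14 higher and 38 lower (median −0.14) with library totals alone, and the list went from 1.38–1.49% of all counts in the libraries at 3 dpf to 1.31–1.35% at 5 dpf. The share of this list called was 60.7%, beside 58.0% over all genes, 29.3% higher and 28.7% lower. *cox6a2* and *cox8b*, muscle-type subunits of cytochrome oxidase, rose from 1.63 ± 0.574 to 11.0 ± 1.23 CPM and from 9.68 ± 0.992 to 27.9 ± 2.41 CPM. *ndufab1a* stood at 17.7, 23.1, 25.6 and 24.1 CPM at 3 dpf and 4.56, 4.85, 5.12 and 3.53 CPM at 5 dpf, with a log2 change of −2.32 ± 0.14 (adjusted p = 1.6e-08), and *cycsb*, cytochrome c, fell from 348 ± 7.74 to 155 ± 11.1 CPM. Of the 13 genes that mitochondria encode 8 rose and 0 fell with TMM scaling, and 7 rose and 3 fell with library totals alone. *mt-nd1* was not called, with a log2 fold change of −0.07 (SE 0.05, adjusted p = 0.241), and *mt-co1* rose from 8955 ± 288 to 12307 ± 711 CPM. Antioxidant genes were divided, and 20 of 47 were higher and 12 lower at 5 dpf (median log2 fold change 0.07), or 14 higher and 16 lower (median −0.08) with library totals alone. *sod1* stood at 61.1, 52.9, 54.1 and 54.1 CPM at 3 dpf and 113, 126, 118.7 and 126 CPM at 5 dpf, with a log2 change of 1.12 ± 0.06 (adjusted p = 6.6e-09), *gpx4a* rose from 117 ± 2.86 to 429 ± 51.2 CPM, and *gpx7* and *sod3a* fell from 21.5 ± 1.63 to 6.17 ± 0.640 CPM and from 8.46 ± 1.57 to 3.60 ± 1.02 CPM.

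**Figure D4:**
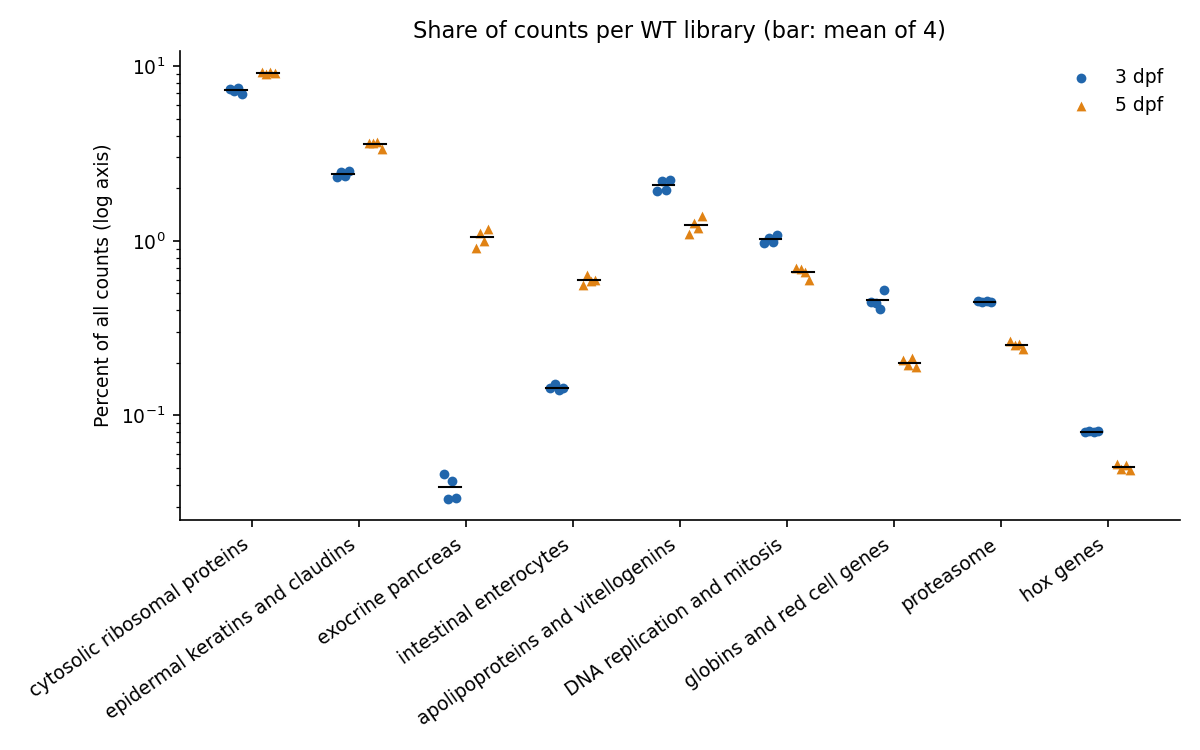
Share of all counts that fell on each of 9 gene lists in every WT library (y axis, percent of the library's counts on a log axis; blue circles 3 dpf, orange triangles 5 dpf, 4 libraries each). The exocrine pancreas list rose from below 0.05% to above 0.9%.

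Per gene length, the same few muscle, mitochondrial and skin transcripts led at both ages. In TPM, counts scaled by gene length and then to a common total, computed from the counts and the gene lengths of the tables, the muscle calcium buffer gene *pvalb1* was highest at both ages, with 20036 ± 2151 TPM at 3 dpf and 25452 ± 879.9 TPM at 5 dpf. *mt-co2*, a mitochondrial cytochrome oxidase gene, had 14296 ± 490.2 TPM at 3 dpf and 15006 ± 309 TPM at 5 dpf, and the skeletal muscle actin-type gene *actc1b* 11096 ± 962 TPM at 3 dpf and 10723 ± 740.5 TPM at 5 dpf. Of the 10 highest genes at 3 dpf, 8 were also among the 10 highest at 5 dpf. The others at 3 dpf were *apoa2* (6775 ± 582 TPM at 3 dpf and 3479 ± 331 TPM at 5 dpf) and *krtt1c19e* of the skin (6274 ± 447 TPM at 3 dpf and 6708 ± 559.6 TPM at 5 dpf). At 5 dpf their places were taken by *rplp0* (5567 ± 188 TPM at 3 dpf and 7490.1 ± 253 TPM at 5 dpf) and the actin gene *actb2* (3965 ± 247 TPM at 3 dpf and 7466 ± 294 TPM at 5 dpf).

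Several genes that the study names for its *UAS:fynY531F* larvae also changed with age in WT. The genes given are some of those that the study names, not all. The study compares 5 with 3 dpf in *UAS:fynY531F* larvae, and these larvae with *elavl3:Gal4* at 5 dpf. The change in WT is thus not always the same contrast. The study reports *apoea*, *oxsr1a*, *sod3a* and *sdhaf2* as reduced, and these fell in WT. It also reports *mt-nd3*, *ndufs7*, *mao* and *ddc* as reduced, without a stated contrast for each, and these rose with age in WT. *irg1l* and *timp2b*, which it reports as elevated, fell with age in WT. For *irg1l* the study's contrast is that of *UAS:fynY531F* with *elavl3:Gal4* larvae at 5 dpf. A fall with age in WT is not the opposite of a difference between genotypes at the same age. *prss1*, *prss59.1* and *ctsbb*, a cathepsin B gene, rose in WT, the last from 0.222 ± 0.248 to 32.0 ± 5.11 CPM (log2 fold change 7.11, or 8.21 without replicate 3 at 3 dpf). *casp3a*, caspase 3, stood at 17.9, 17.4003, 18.6 and 22.7 CPM at 3 dpf and 6.60, 11.0, 7.499 and 7.74 CPM at 5 dpf, with a log2 change of −1.21 ± 0.15 (adjusted p = 1.1e-05). *sod3a*, *irg1l* and *ddc* have been given above. *apoea* and *oxsr1a* fell from 619.6 ± 44.9 to 492 ± 26.5 CPM and from 79.5 ± 4.84 to 59.12 ± 1.31 CPM, and *sdhaf2* from 20.8 ± 5.90 to 12.5 ± 2.07 CPM. *sdha*, a succinate dehydrogenase gene, had a log2 fold change of −0.11 (SE 0.06, adjusted p = 0.136) and was not called, nor was *tfam*, a mitochondrial transcription factor gene, with −0.16 (SE 0.07, adjusted p = 0.0795). Each was called lower when 1 library was left out, *sdha* (−0.17) without replicate 2 at 3 dpf and *tfam* (−0.20 and −0.21) without replicate 4 at either age. *mt-nd3* rose from 279.8 ± 10.4 to 435 ± 10.5 CPM, and *ndufs7* was higher at 5 dpf, 22.7 ± 7.61 to 37.2 ± 4.88 CPM, with overlapping libraries and a log2 change of 0.71 ± 0.17 (adjusted p = 0.00316). *mao*, monoamine oxidase, stood at 39.7, 37.9, 38.2 and 39.2 CPM at 3 dpf and 152, 187, 145 and 159.8 CPM at 5 dpf and had a log2 change of 2.05 ± 0.08 (adjusted p = 1.2e-10). *stat3* had a small rise, from 37.6 ± 2.55 to 42.5 ± 1.23 CPM with a log2 change of 0.18 ± 0.06 (adjusted p = 0.0306), whose call was lost without replicate 1 at 3 dpf or without replicate 1, 2 or 4 at 5 dpf (log2 fold changes of 0.13 to 0.18). Its feedback inhibitor *socs3a* rose from 19.3 ± 1.39 to 37.6 ± 6.29 CPM. *caspa* and *nlrp16* of inflammasome signalling rose by 0.43 and 0.82 on the log2 scale, and *timp2b* fell by 0.84. *tnfrsf1a* (0.10 (SE 0.07, adjusted p = 0.231)), *tnfrsf1b* (−0.03 (SE 0.17, adjusted p = 0.898)) and *timp4.1* (0.25 (SE 0.24, adjusted p = 0.405)) were not called. *fyna*, from which the transgene was made, had in WT a log2 fold change of −0.02 (SE 0.06, adjusted p = 0.83), at 89.0, 88.0, 93.0 and 86.7 CPM at 3 dpf and 89.8, 78.3, 89.8 and 95.02 CPM at 5 dpf. The driver gene *elavl3* of neurons rose by 0.20.

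The change with age in WT was set against the change in each of the other genotypes by the interaction of genotype and age. Against *elavl3:Gal4* larvae, 38 of 20177 genes differed (0.188%), 29 with a more positive change in WT and 9 with a more negative one. Replicate 3 of *elavl3:Gal4* at 5 dpf stands apart from its group, with a Pearson's r across genes of 0.855–0.870 to the other replicates, which lay at 0.989–0.991 among themselves. Without it 506 genes differed (290 more positive in WT), and leaving out 1 of 11 other libraries brought the count to between 17 and 25. Across genes tested in both, Pearson's r of the log2 fold changes was 0.90 with that library and 0.92 without it, as a description. Of the genes called in WT, 90.8% had the same sign in *elavl3:Gal4* larvae, and 96.6% without that library. *fkbp5* rose in WT and not in *elavl3:Gal4* larvae, whose log2 fold change was −0.31, a difference of 2.09 (SE 0.18, adjusted p = 8.5e-05). Without replicate 3 the difference was 2.05 (adjusted p = 2.5e-06). Its levels in the 16 libraries were 94.8, 103, 73.3 and 85.1 CPM at 3 dpf and 317, 315, 269 and 308 CPM at 5 dpf in WT, and in *elavl3:Gal4* 93.5, 112, 88.4 and 93.0 CPM at 3 dpf and 78.2, 66.6, 71.5 and 92.4 CPM at 5 dpf. *cyldb*, a deubiquitinase gene, differed in the same way by 2.096 (SE 0.23, adjusted p = 7.9e-04). *vimr2*, a vimentin-related gene, differed by 2.29 (SE 0.26, adjusted p = 8.1e-04), with log2 fold changes of −2.75 in *elavl3:Gal4* larvae and −0.47 in WT. *hmgcra* and *fads2*, genes of sterol and fatty acid synthesis, rose less in WT, by −1.68 (SE 0.27, adjusted p = 0.0158) and −1.39 (SE 0.22, adjusted p = 0.0141). *fosab* also rose less in WT, with a difference of −1.51 (SE 0.25, adjusted p = 0.0201).

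Against *elavl3:Gal4; UAS:fynY531F* larvae, 2380 of 20334 genes differed (11.7%), 1113 with a more positive change in WT and 1267 with a more negative one, and with library totals alone 2412 differed, 824 more positive. Pearson's r of the log2 fold changes across genes was 0.80, and 90.8% of the genes called in WT had the same sign there. The counts of genes with a difference cannot be read as the effect of the transgene alone, since these larvae also carry the driver. The labels do not give the parents of each pool. In both comparisons of genotypes, differences between clutches or lines therefore cannot be told apart from genotype. Nor can clutch be told apart from age in the comparison within WT. *cfh* had the most negative difference that the rule took, −7.56 (SE 0.60, adjusted p = 7.0e-07). In the 16 libraries *cfh* stood at 15.8, 24.2, 13.1 and 27.4 CPM at 3 dpf and 0.239, 0.291, 0.137 and 0.225 CPM at 5 dpf in WT, and in *elavl3:Gal4; UAS:fynY531F* 20.6, 21.9, 15.4 and 24.4 CPM at 3 dpf and 59.5, 53.9, 48.4 and 20.1 CPM at 5 dpf. *cfhl4* differed by −5.30 (SE 0.40, adjusted p = 4.7e-07). At the other end *msh4*, a meiotic gene, differed by 5.83 (SE 0.60, adjusted p = 1.1e-05), at 3.74, 2.78, 3.90 and 1.99 CPM at 3 dpf and 4.54, 4.66, 5.69 and 6.06 CPM at 5 dpf in WT, and in *elavl3:Gal4; UAS:fynY531F* 2.79, 1.33, 1.52 and 2.41 CPM at 3 dpf and 0.0849, 0.113, 0 and 0 CPM at 5 dpf. *paqr3a* differed by 5.35 (SE 0.95, adjusted p = 0.00144) and *hnrnpdl*, an RNA-binding protein gene, by 4.098 (SE 0.79, adjusted p = 0.00263). *fyna* differed by 2.101 (SE 0.19, adjusted p = 3.5e-06), as its level fell with age in the larvae with the transgene, where counts of *fyna* can include the transgene's own transcript.

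**Figure D5:**
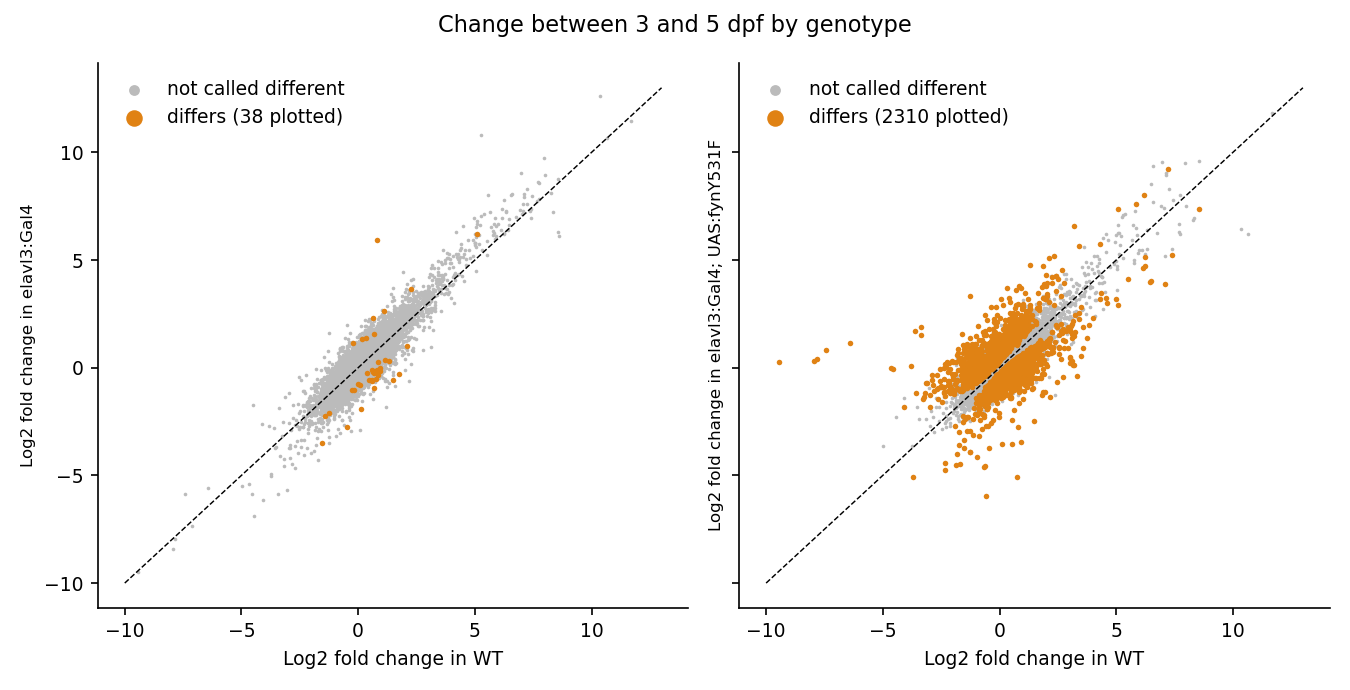
Log2 fold change between 3 and 5 dpf in WT larvae (x axis) against that in *elavl3:Gal4* larvae (left) and *elavl3:Gal4; UAS:fynY531F* larvae (right, y axes) for the genes tested in both. Orange points are the genes whose change differed at an adjusted p under 0.05, 38 on the left and 2380 on the right before genes not tested in both were set aside, and the dashed line marks equal change.

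The gene lists of WT were moved to different extents in the other genotypes. For the *hox* genes the median log2 fold change was −0.51 in WT and −0.81 in *elavl3:Gal4; UAS:fynY531F* larvae, and 17 of 46 tested genes fell less in WT against 1 that fell further. Among sarcomere genes the medians were −0.09 and −0.39, with 22 of 114 more positive in WT and 10 more negative. The collagen and matrix list had medians of −0.04 and 0.13, with 1 of 76 more positive in WT and 21 more negative. The exocrine pancreas list rose in both, with medians of 5.07 and 6.22, and 7 of 31 genes rose less in WT. In *elavl3:Gal4* larvae the medians of these lists, in the order given, were −0.50, 0.02, −0.50 and 5.98. Without replicate 3 of *elavl3:Gal4* at 5 dpf they were −0.64, −0.26, −0.34 and 5.33. With that library kept, 0 genes of each of these lists were called different between WT and *elavl3:Gal4* larvae. The lists given are examples, and others differed from *elavl3:Gal4; UAS:fynY531F* larvae too. Of 54 enterocyte genes 15 were more positive in WT and 5 more negative. Of 80 liver plasma protein genes 3 were more positive and 21 more negative. Over all 20334 genes tested against those larvae, 1113 were more positive in WT and 1267 more negative, which is 11.7% for the directions together. No test of a list was made.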

How the data were processed

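RNA was prepared from pools of whole larvae, each labelled as a biological replicate, and poly(A) RNA was sequenced in paired reads. The submitters' processing notes name HISAT2 2.0.5, StringTie 1.3.3b, featureCounts 1.5.0-p3 and build GRCz11, without the role of each or the strand setting. Not all named genes that overlap a gene on the other strand are marked in the text. Unmarked ones include *mep1b*, *mep1a.2*, *pla2g1b*, *tg* and *hoxa1a*. The deposited tables hold the authors' raw read counts per gene with gene lengths, coordinates and symbols. Their columns of normalized values, and of fold changes with p-values from the authors' own DESeq2 comparisons, were not used, nor were 33 further tables. In all, 48 columns of per-sample values were left out.

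Counts of 25557 genes in the 8 WT libraries were filtered with filterByExpr, scaled with TMM and tested with edgeR 4.0.16 (R 4.3.3, glmQLFit and glmQLFTest), with Benjamini-Hochberg adjustment over all 19589 genes tested and calls at 0.05. The standard error is the absolute log2 fold change over the square root of the F statistic. Differences between genotypes were the interaction term of a fit over 16 libraries. The fits were also run on simulated data in which few genes changed, evenly in both directions. How they do where most genes change, as here, was not tested. Depth ran from 12779937 to 17674082 counts per library, and counting intervals (95%, exact binomial on the split of counts) and floors of 3 counts cover counting error only.

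The members and the 44 gene lists (2538 symbols, of which 2320 were matched, 72 by an older name) were chosen with earlier results of these data known. Of 2352 genes matched, 115 stood in more than 1 list. Named genes were the 15 largest rises and falls with a symbol, a mean log2 CPM of at least 1 and libraries that do not overlap between ages, the first tested gene and up to 3 genes per direction of each list, the 10 highest in TPM at each age and up to 5 genes per direction of each interaction. Genes outside these rules were members of a list or named by the study. Alternatives were other scaling (DESeq2's size factors, library totals), DESeq2 1.42.0, other filters, all 6 groups in one fit, a replicate block and each library left out. Replicate numbers were not used to pair libraries. Promoter motifs were not searched, as no promoter sequences were at hand.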

Additional observations from a re-analysis of the deposited data

Results flagged for a closer look

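In groups of 4 replicates, 1 library stood far from the other 3 in 35 of 560 sets of values by Dixon's test at the 95% level. The sets were the genes named in the text, the library totals and the genes with a count. Chance gives about 1 in 20 for normally distributed values, which values from few counts are not. A set with counts in 1 library and 0 in the other 3, as for *dlgap5* with 2 counts, is always flagged. Replicate 1 at 3 dpf gave *slc34a2a* at 0.883 (0.655–0.677), *cdx1a* at 3.83 (4.36–4.42), *ahsg2* at 0.294 (0.146–0.150), *tg* at 23.5 (19.7–19.8), *sod1* at 61.1 (52.9–54.1) and *apoea* at 552 (638–646). It also gave *caspa* at 10.1 (11.5–11.7). Replicate 2 at 3 dpf gave *fabp2* at 10.8 (1.91–2.63), *fdps* at 64.4 (59.9–60.0), *dlgap5* at 0.146 (0 in each) and *timp2b* at 26.4 (23.9–24.2). Replicate 3 at 3 dpf gave *ncapg* at 8.03 (3.91–4.19), *myh7l* at 37.0 (43.0–44.2), *ctsbb* at 0.589 (0.0728–0.150) and *oxsr1a* at 72.2 (81.2–82.6). Replicate 4 at 3 dpf gave *agr2* at 65.9 (71.4–72.2), *ins* at 0.978 (0.364–0.442), *snap25a* at 309 (345–353), *fabp7a* at 459.8 (555–564), *ucmaa* at 1.81 (2.403–2.502) and *cd74b* at 1.505 (2.87–2.98). Replicate 1 at 5 dpf gave *nr1d1* at 179.9 (196–197) and *cox8b* at 24.3 (28.7–29.4). Replicate 2 at 5 dpf gave *gap43* at 97.1 (105–107), *eya1* at 35.8 (30.8–30.9) and *vimr2* at 25.9 (15.02–15.9). Replicate 3 at 5 dpf gave *rhcgl1* at 8.27 (11.0–11.6), *foxn1* at 2.73 (4.19–4.399), *nlrp16* at 4.98 (6.67–6.89) and *tnfrsf1a* at 28.9 (31.6–31.6). Replicate 4 at 5 dpf gave *tnmd* at 81.4 (93.4–95.5), *gpx4a* at 505 (396–412), *sdhaf2* at 15.6 (11.2–11.8), *tfam* at 40.2 (35.4–35.8) and *timp2b* at 10.9 (14.4–15.07). In each case the range of the other replicates stands in parentheses, in CPM.

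The change with age in WT differed from that in another genotype, by the test of the interaction with Benjamini-Hochberg adjustment, in some of the genes named. Of 278 genes named in the text, 7 differed against *elavl3:Gal4* larvae and 101 against *elavl3:Gal4; UAS:fynY531F* larvae. Over all genes tested the shares were 0.188% and 11.7%. Some genes were named because this same difference was called and large, so these counts are no result about the genes named. Values are log2 differences, WT minus the other genotype. Against *elavl3:Gal4* larvae the change in WT was more positive in the genes that follow. These genes were *fkbp5* (2.09), *cry1bb* (0.84), *cyldb* (2.096) and *vimr2* (2.29).

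Against the same larvae it was more negative in others. These genes were *hmgcra* (−1.68), *fosab* (−1.51) and *fads2* (−1.39).

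Against *elavl3:Gal4; UAS:fynY531F* larvae the change in WT was more positive in a larger set. These genes were *chia.2* (1.18), *slc15a1b* (1.13), *slc6a19a.1* (2.15), *cd36* (1.0998), *pyyb* (2.18), *pcsk1* (1.32), *sult1st2* (2.18), *apobb.2* (1.35), *ldlra* (0.84), *apoa4b.2* (1.46), *mttp* (0.95) and *acsl5* (1.54). Next came *dhcr7* (0.53), *msmo1* (1.75), *hmgcra* (0.92), *crhb* (1.01), *rpl21* (2.81), *calb2a* (0.98), *gap43* (0.82), *stmn3* (0.85), *stmn4* (1.79), *mbpa* (0.43), *egr2b* (0.94) and *npas4a* (0.89). Others were *hspa8* (2.92), *cry5* (1.85), *cry1bb* (1.55), *actc1a* (1.18), *matn3a* (2.19), *col9a1b* (0.98), *krt97* (0.94), *prdx2* (0.47), *cfp* (0.97), *abcb4* (0.78), *cox6a2* (1.08) and *sod1* (0.48). The rest were *gpx4a* (0.81), *ndufs7* (1.15), *mao* (0.80), *stat3* (0.25), *tnfrsf1a* (0.36), *fyna* (2.101), *vimr2* (3.28), *fads2* (0.61), *msh4* (5.83), *paqr3a* (5.35) and *hnrnpdl* (4.098).

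Against those larvae it was more negative in the set that follows. These genes were *prss59.1* (−2.004), *prss59.2* (−2.33), *ctrl* (−1.84), *cel.1* (−1.39), *cdx1a* (−1.57), *alpi.1* (−0.63), *agr2* (−1.06), *cps1* (−1.03), *leg1.2* (−1.58), *cyp1a* (−2.22), *cyp26a1* (−1.25) and *cyp2aa3* (−1.68). Next came *cyp2aa9* (−1.78), *apoba* (−1.12), *apoc1* (−1.05), *apoa2* (−0.54), *acaa2* (−0.76), *mt2* (−2.66), *psmd8* (−0.27), *itpr1b* (−0.48), *ntn1a* (−0.91), *egr4* (−0.59), *hspd1* (−0.53) and *per1a* (−1.73). Others were *nr1d1* (−1.29), *dbpb* (−1.82), *gngt2a* (−2.42), *crygm2d1* (−1.60), *crygm2d6* (−0.96), *myl7* (−1.08), *myh7l* (−2.48), *mybpc2a* (−1.57), *myhb* (−2.13), *mmp9* (−1.73), *cbln20* (−1.84) and *ponzr1* (−0.72). Further genes were *s100u* (−0.77), *tfap2c* (−0.55), *rhcga* (−1.17), *slc4a2a* (−0.56), *ca2* (−0.96), *si:ch211-167j6.5* (−4.23), *pax5* (−1.64), *foxn1* (−1.04), *cfh* (−7.56), *cfhl4* (−5.30), *mpeg1.2* (−1.40) and *irg1l* (−1.72). The rest were *paics* (−1.21), *atic* (−0.86), *mthfd1l* (−1.69), *ndufab1a* (−2.47), *sod3a* (−0.86) and *timp4.1* (−0.92).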

How the results depend on the processing

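The count of 11352 genes called lay between 10609 and 12034 under the other scalings, DESeq2, the other filters and the replicate block, and between 10651 and 10935 when 1 library was left out. It was 7560 with all 6 groups in one fit and 2521 with a log2 fold change over 1 required in addition. Replicate numbers are shared by the ages, but same-numbered libraries did not deviate together (r of −0.054, 0.0149, 0.0022 and −0.0736 across genes), and with the replicate block 11023 genes were called. The 38 genes whose change differed from that in *elavl3:Gal4* larvae became 213 with DESeq2, 27 with the replicate block and 17 to 506 when 1 library was left out, the highest without replicate 3 at 5 dpf of *elavl3:Gal4*. Against *elavl3:Gal4; UAS:fynY531F* larvae the 2380 became 2186 to 2690 under the other settings, 2501 with the replicate block, and 1824 to 2530 when 1 library was left out. The difference in mean depth, 1969179 counts more at 5 dpf, ranged from 1027069 to 2637488 when 1 library was left out. Of the genes named, 240 kept direction and side of the threshold with all 6 groups in one fit and 38 lost their call. With a minimum of 10 counts in every library 29 of them were not tested. No gene named changed direction past the threshold under any setting run, and the causes of lost calls were not tested. Genes with few counts at 1 age carry the least certain fold changes, and small changes depend on the scaling.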

Other observations

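A few genes went from counts in every WT library of 1 age to 0 in all 4 libraries of the other. With a mean of at least 1 CPM at the other age there were 9 such genes, chosen after their values were seen, 5 at 0 at 5 dpf and 4 at 0 at 3 dpf. *si:ch211-261n11.7* (chromosome 8 from 22477922 to 22489985 of GRCz11) had 91, 68, 64 and 115 counts in the WT libraries at 3 dpf and 0 in each at 5 dpf, at least 117-fold lower against a floor of 3 counts over the group. The neighbouring *si:ch211-261n11.8* (22490069 to 22499940) and *CT583651.1*, which lies within the coordinates of the latter, had 40, 28, 22 and 22 and 16, 14, 11 and 26 counts at 3 dpf and 0 in each library at 5 dpf, at least 38.8-fold and 23.3-fold lower. These 3 genes were also at 0 in all 4 *elavl3:Gal4* libraries at 5 dpf. Of the 4 libraries of *elavl3:Gal4; UAS:fynY531F* at 5 dpf, they were at 0 only in replicate 1, and *si:ch211-261n11.7* had 76, 49 and 20 counts in replicates 2 to 4. All 4 *elavl3:Gal4* libraries at 3 dpf held *si:ch211-261n11.7*, at 81, 228, 48 and 60 counts. *LO018181.1* on chromosome 4 and the zinc finger gene *znf1156* on chromosome 22 had 38, 23, 40 and 19 and 13, 22, 19 and 30 counts in WT at 3 dpf, 0 in each WT library at 5 dpf, and 15, 91, 51 and 44 and 40, 10, 17 and 16 counts in *elavl3:Gal4; UAS:fynY531F* at 5 dpf. In *elavl3:Gal4* larvae at 5 dpf *LO018181.1* had 0 counts in each library and *znf1156* had 1, 0, 0 and 1.

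In the other direction *fhl1a*, which encodes a LIM domain protein of muscle, had 0 counts in each WT library at 3 dpf and 49, 65, 38 and 47 at 5 dpf, at least 64.0-fold higher. It had 35, 68, 86 and 35 counts in *elavl3:Gal4* larvae at 5 dpf but 4, 0, 0 and 0 in *elavl3:Gal4; UAS:fynY531F*. *CR457444.2* (27, 15, 27 and 17 counts) and *si:dkey-22i16.7* (30, 64, 54 and 45 counts) were likewise found in WT only at 5 dpf. *mep1b*, given above, was the fourth, and at 5 dpf it had 196, 218, 162 and 231 counts in WT against 24, 17, 33 and 32 in *elavl3:Gal4; UAS:fynY531F* larvae. Differences between clutches or lines in these genes were not tested, as the labels do not give the parents of each pool.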
